A study of Mus musculus with 27 samples.

Results

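The epididymal white fat pad, a visceral depot beside the testis, was profiled by RNA sequencing 8 weeks after mice fed a high-fat diet had been returned to normal diet. The maintenance group had 8 weeks of a diet with 60% of its energy from fat followed by 8 weeks on normal diet. The control16 group had normal diet for all 16 weeks. Mice of both groups were C57BL/6N, 21 weeks old. Each group held 3 libraries, so 6 of the 27 libraries of the series are described, and 5 when maintenance library 3, which held liver transcripts, was left out. Of 43460 gene names 17821 passed the filter on low counts, and 18358 without that library. For comparison the loss group, 4 weeks after the same diet switch, and its control12 group are used, both 17 weeks old. The gain8 group, at the end of 8 weeks on high-fat diet, and its control8 group are used too, both 13 weeks old. Control12 had normal diet for all 12 weeks and control8 for all 8 weeks. All of these groups hold 3 libraries.

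A fat pad that grows on a high-fat diet takes in macrophages. Some of them gather round dying adipocytes, take up their lipid and switch on a set of genes led by the lipid receptor Trem2, and are known as lipid-associated macrophages. As a pad grows its extracellular matrix of collagens, elastic fibres and proteoglycans is remodelled, and adipocytes store fat made by lipogenesis or taken from the blood. In bulk tissue, fewer cells of a type and less RNA per cell cannot be told apart.

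The libraries held 26479773 to 30575219 counts. Levels are CPM after TMM scaling, that is, counts per library size. A change is the log2 fold change with its SE, tested by quasi-likelihood in edgeR, and a gene is called when its Benjamini-Hochberg adjusted p is under 0.05. Whether each numbered replicate is its own animal is not stated in the labels, and p-values speak for the spread between libraries. With 3 libraries in each group, an exact two-sided permutation test has a smallest p of 0.1. The tissue carried its adipocyte markers. As mean log2 CPM the 21 adipocyte identity genes stood at 10.36, 10.22 and 10.26 in maintenance and at 10.18, 9.97 and 10.18 in control16. Of single genes, adiponectin (Adipoq) stood at 5812, 4387 and 1631 CPM in maintenance and at 4279, 3510 and 3820 CPM in control16. Maintenance library 3 was the lowest for Adipoq but not for the list.

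Maintenance library 3 stood apart. Albumin (Alb) was at 5233 CPM in it, at 14.6 and 13.3 CPM in maintenance libraries 1 and 2, and at 22.7, 14.2 and 17.7 CPM in control16. Apoa1, a lipoprotein gene of the liver, was at 335 CPM in that library and at 0.270 to 2.15 CPM in the other 5. Summed over 20 liver genes, a list from which Cyp2e1 and Trf were taken out after their levels in fat were seen, it held 9675 CPM, and no other of the 27 libraries exceeded 157.7 CPM. Lipogenic transcripts went with it: Fasn, the fatty acid synthase gene, was at 29343 CPM in maintenance library 3, at 401 and 758 CPM in libraries 1 and 2, and at 632, 572 and 1009 CPM in control16. Acly, which makes cytosolic acetyl-CoA, was at 10968 CPM in it against 116 and 137 CPM in the other maintenance libraries and 169, 159 and 135 CPM in control16. Whether the lipogenic transcripts came with the liver transcripts was not tested.

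Libraries 1 and 2 differed as well. Lep, the leptin gene, was at 74.1, 1742 and 743 CPM in maintenance libraries 1 to 3 and at 985, 754 and 2624 CPM in control16. Mest, a marker of growing adipocytes, was at 50.7, 715 and 51.4 CPM in maintenance against 314, 236 and 937 CPM in control16, and Sfrp5, another such gene, at 22.2, 719 and 9.41 CPM against 230, 211 and 797 CPM. Cfd, the adipsin gene, was at 21084, 3862 and 6790 CPM in maintenance and at 6746, 4913 and 4104 CPM in control16. Maintenance library 1 had the most Cfd and the least Lep of the 6 libraries, so the maintenance group had no common level for these genes.

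**Figure D1:**
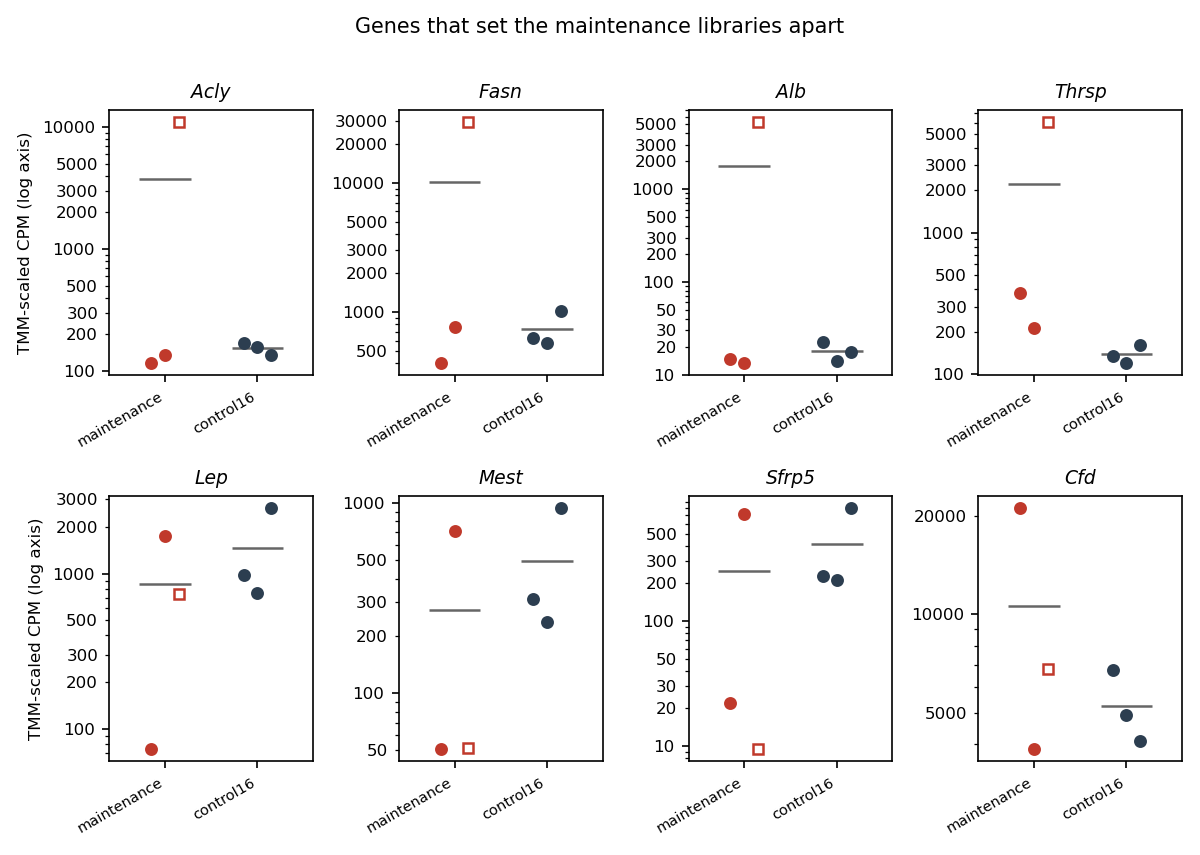
Levels per library (TMM-scaled CPM, log axis) of 8 genes in maintenance (left) and control16 (right); points are libraries, the open square is maintenance library 3 and the line is the group mean. Acly, Fasn, Alb and Thrsp are highest in maintenance library 3, at 10968, 29343, 5233 and 6055 CPM, while Lep, Mest and Sfrp5 are spread within maintenance.

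Lars2, which encodes the mitochondrial leucyl-tRNA synthetase, divided the libraries in another way. It was at 135, 190 and 4104 CPM in maintenance and at 3094, 2115 and 156 CPM in control16. Without maintenance library 3, both maintenance libraries are low in Lars2 and 2 of the 3 control16 libraries are high. With the Lars2 set as a term, edgeR called 0 genes with all libraries and 0 without maintenance library 3, with 4083 and 1885 at an unadjusted p under 0.05.

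What remained of the diet 8 weeks after the switch was read from maintenance against control16. edgeR called 0 of 17821 genes (0%), with 3633 at an unadjusted p under 0.05 (20.4%), 2408 of them higher (13.5%) and 1225 lower (6.87%), and the smallest adjusted p was 0.0508. Without maintenance library 3 it called 0 of 18358 genes (0%), with 2424 at an unadjusted p under 0.05 (13.2%), 1411 of them higher (7.69%) and 1013 lower (5.52%), and the smallest adjusted p was 0.203. These p-values rest on a spread estimated from all libraries of the series that were kept. Fitting only the compared groups in edgeR left 1528 genes at an unadjusted p under 0.05 (9.53%), with a smallest adjusted p of 0.502. Without library 3 that fit gave 1921 genes (11.7%) and 0.427. DESeq2 called 830 of the 15628 genes to which it gave an adjusted p (5.31%), 645 of them higher (4.13%) and 185 lower (1.18%). Without maintenance library 3 it called 73 of 16856 such genes (0.433%), 41 higher (0.243%) and 32 lower (0.19%). With 901 genes at an adjusted p under 0.1 in the fit of all libraries, and 0 in the fit without library 3, the count depends on where the threshold and the libraries fall. Leaving out maintenance library 1 gave 559 calls and leaving out library 2 gave 2299, while leaving out library 3 gave 0. Groups did not overlap in CPM for 1444 genes higher in maintenance (8.1%) and 1346 lower (7.55%), 15.7% together. Without library 3 these were 2880 (15.7%) and 2698 (14.7%), 30.4% together.

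Since edgeR called no gene, the genes named next are those with the smallest p that did not overlap between groups, and they are given as values. Those lower in maintenance come first. Col14a1, encoding a collagen that sits on fibrils, was at 27.2, 25.3 and 29.7 CPM in maintenance and at 135, 127 and 82.3 CPM in control16. It gave -2.07 ± 0.34 (edgeR adjusted p = 0.0508) and, without maintenance library 3, -2.09 ± 0.40 (adjusted p = 0.203). All 3 maintenance libraries lay below all 3 control16 libraries. The gene lies on chromosome 15, 55307750 to 55520803 in GRCm38.

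Fbn1, the gene of fibrillin-1, the protein of elastic microfibrils, was at 102, 106 and 48.8 CPM in maintenance and at 434, 242 and 341 CPM in control16. Fstl1, a secreted glycoprotein of fibroblasts, was at 162, 171 and 140 CPM in maintenance and at 455, 360 and 288 CPM in control16. Every maintenance value was under every control16 value for both genes, with changes of -1.99 ± 0.44 and -1.22 ± 0.24 (adjusted p = 0.0508 each), and -1.67 ± 0.47 and -1.10 ± 0.27 without library 3 (adjusted p = 0.265 each). The proteoglycan gene Aspn was at 15.5, 20.7 and 33.6 CPM against 71.7, 79.5 and 45.5 CPM, and the Wnt antagonist Sfrp4 at 3.47, 2.32 and 3.44 CPM against 19.5, 10.5 and 10.6 CPM. Adamts5, which cleaves aggrecan-type proteoglycans, was at 112, 328 and 176 CPM against 576, 394 and 603 CPM.

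Ccr2, the receptor through which monocytes leave bone marrow and enter inflamed tissue, was among the genes with the smallest p. It stood at 23.0, 29.1 and 19.1 CPM in maintenance and at 75.3, 79.0 and 58.1 CPM in control16. The change was -1.58 ± 0.28 (adjusted p = 0.0508), and -1.40 ± 0.31 without maintenance library 3 (adjusted p = 0.229). The libraries of the 2 groups did not overlap in either case.

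Among genes higher in maintenance, Fst, which encodes the activin antagonist follistatin, was at 56.5, 29.1 and 38.2 CPM against 8.61, 19.1 and 6.45 CPM in control16. The change was 1.86 ± 0.37 with all libraries and 1.96 ± 0.40 without library 3 (adjusted p = 0.0508 and 0.203). Got1, a transaminase gene, was at 26.8, 21.2 and 24.0 CPM against 14.4, 12.9 and 10.8 CPM, and Sycp3, a meiotic chromosome gene, at 24.0, 36.7 and 39.3 CPM against 3.93, 4.64 and 10.8 CPM. These genes did not overlap between groups. Testis and sperm markers were present in the same libraries: as mean log2 CPM the 10 genes stood at 1.58, 1.90 and 2.76 in maintenance and at -2.30, -1.16 and 1.48 in control16, the same order of libraries as for Sycp3. All 10 lay above 0, and none had an unadjusted p under 0.05. The 7 epididymis genes tested stood at -2.67, 1.02 and -1.46 in maintenance and at -2.55, -1.89 and -1.78 in control16. Of them 2 were higher at an unadjusted p under 0.05 (13.5% of all genes). The part of these tissues in the values of Sycp3 was not tested. Rilpl2, Slc25a22, Sh2b2 and Paox were also named, with maintenance library 3 the highest for each. So were Aspg, Serpinc1, F9 and Tmprss6, which that library held at 24.6, 142, 14.8 and 37.8 CPM, and libraries 1 and 2 at 0.0754 to 4.00 CPM. Krt80, Spon2, Trim62, Cdc42ep3 and Spata6 complete the genes named on the lower side.

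Leaving out maintenance library 3 brought forward other genes, none of which passed. Rgs1, a regulator of G-protein signalling in immune cells, was at 26.7, 15.6 and 1.06 CPM in maintenance and at 1.09, 1.54 and 4.66 CPM in control16, with 3.15 ± 0.66 without library 3 (adjusted p = 0.203) and 2.57 ± 0.79 with it (adjusted p = 0.0887). Cd83, an activation marker of antigen-presenting cells, was at 66.5, 36.5 and 5.39 CPM against 15.6, 16.2 and 24.9 CPM, with 1.49 ± 0.33 without library 3 (adjusted p = 0.206). Both genes were lower in maintenance library 3 than in every control16 library. Ggt5, a glutathione-cleaving enzyme, was at 108, 72.7 and 31.3 CPM against 42.7, 44.7 and 52.8 CPM. On the lower side the kinase gene Nuak1 was at 9.35, 14.6 and 27.6 CPM against 39.3, 47.9 and 26.4 CPM, and the potassium channel subunit Kcne4 at 3.17, 3.97 and 7.15 CPM against 25.2, 25.02 and 6.45 CPM. For these 2 genes maintenance library 3 overlapped control16. Plekhf1, Fndc5, Bdh2 and Snhg1 complete the genes named on the higher side without library 3, and Narf, Stxbp6, Glce, Akr1c14 and Gucy1b3 those on the lower side.

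**Figure D2:**
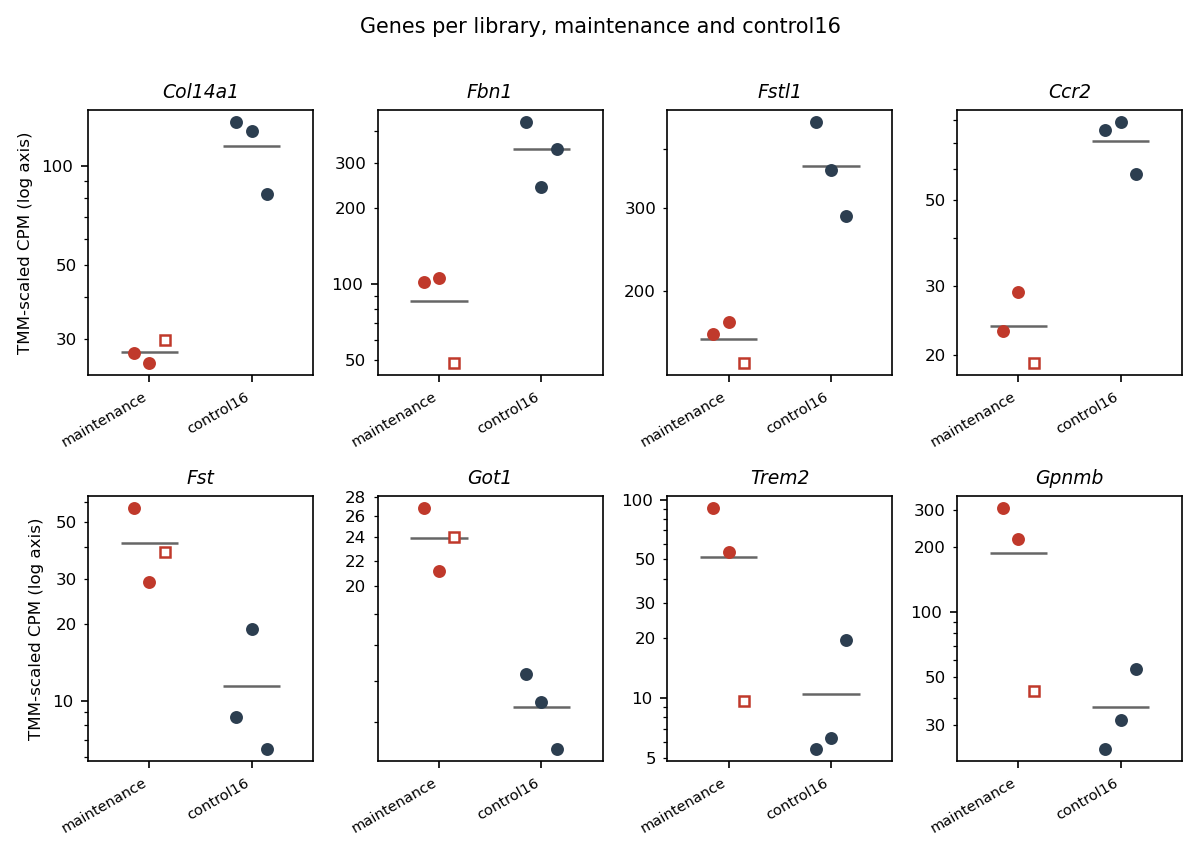
Levels per library (TMM-scaled CPM, log axis) of 8 genes named in the text, in maintenance (left) and control16 (right); points are libraries, the open square is maintenance library 3 and the line is the group mean. Col14a1, Fbn1, Fstl1 and Ccr2 lie lower in every maintenance library and Fst and Got1 higher, while for Trem2 and Gpnmb maintenance library 3 lies within the control16 range.

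Lipid-associated macrophage genes are shown next, with the upstream sequence of the 2 that lead the list, Gpnmb, a glycoprotein of lysosomes and macrophages, and Trem2, from 250 bases before to the base before the RefSeq start in GRCm38.p6. They are printed because both genes were high in the same libraries. Capitals mark the letters TGANTCA, a pattern that covers the AP-1 motif but is wider than it.
Gpnmb, chr6:49036268-49036517, plus strand: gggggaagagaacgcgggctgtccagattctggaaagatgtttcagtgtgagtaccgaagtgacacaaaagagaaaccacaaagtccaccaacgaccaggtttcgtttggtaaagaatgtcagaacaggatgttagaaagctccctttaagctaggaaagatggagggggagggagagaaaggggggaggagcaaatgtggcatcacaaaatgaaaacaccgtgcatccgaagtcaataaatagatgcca
Trem2, chr17:48346151-48346400, plus strand: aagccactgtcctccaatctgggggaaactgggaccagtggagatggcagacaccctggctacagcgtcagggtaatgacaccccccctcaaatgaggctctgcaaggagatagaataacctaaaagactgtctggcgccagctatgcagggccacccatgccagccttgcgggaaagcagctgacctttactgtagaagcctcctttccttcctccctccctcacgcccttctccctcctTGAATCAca
The Trem2 window holds this wider pattern once, as TGAATCA, 9 bases before the start, and is not taken to hold the AP-1 motif. The Gpnmb window has no match. Searched on both strands, 6.75% of 32851 such windows hold TGANTCA. Of 2 windows for Mmp12, the macrophage elastase gene, one held the motif. CACGTG, the E-box of lysosomal gene regulators, was in none of the 4 windows and in 6.02% of all. A match is a description and not a site.

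Trem2 was at 90.5, 54.6 and 9.67 CPM in maintenance and at 5.50, 6.25 and 19.5 CPM in control16. The change was 2.31 ± 0.67 (adjusted p = 0.0772), and 2.84 ± 0.60 without maintenance library 3 (adjusted p = 0.203). Gpnmb was at 304, 219 and 43.2 CPM against 23.1, 31.6 and 54.3 CPM, with 2.38 ± 0.73 (adjusted p = 0.0889) and 2.89 ± 0.71 without library 3 (adjusted p = 0.265). Maintenance libraries 1 and 2 were above every control16 library for both genes, and library 3 was inside the control16 range. Atp6v0d2, a proton pump subunit of macrophages, had the same layout, at 55.9, 40.9 and 5.12 CPM against 5.02, 3.58 and 14.8 CPM, with 2.13 ± 0.71 (adjusted p = 0.113) and 2.67 ± 0.64 without library 3 (adjusted p = 0.265). Mmp12 was at 139, 191 and 38.3 CPM against 8.50, 13.5 and 46.6 CPM. Trem2 lies on chromosome 17, 48346401 to 48354147, and Gpnmb on chromosome 6, 49036546 to 49070929.

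None of the 22 lipid-associated macrophage genes passed. At an unadjusted p under 0.05 there were 9 higher and 1 lower (13.5% and 6.87% of all genes), and 18 of 22 lay above 0, with a median of 0.72 against 0.02 over all genes. Without library 3 there were 8 higher and 0 lower (7.69% and 5.52% of all genes), and the median was 0.77 against 0.04 over all genes. As mean log2 CPM the list stood at 7.84, 7.52 and 7.03 in maintenance and at 6.26, 6.32 and 7.13 in control16, so control16 library 3 was above maintenance library 3. Medians within the low Lars2 set (maintenance libraries 1 and 2 against control16 library 3) and within the high set (maintenance library 3 against control16 libraries 1 and 2) were 0.31 and 0.56, smaller than 0.72, and these were chosen after the data were seen. Fabp5, a fatty acid carrier, was at 149, 143 and 1635 CPM against 197, 172 and 167 CPM, so its change of 1.85 ± 0.58 rests on library 3 and is -0.25 ± 0.27 without it.

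General macrophage markers had smaller medians. Of 22, none passed. At an unadjusted p under 0.05 there were 0 higher and 3 lower with all libraries (13.5% and 6.87% of all genes), and 5 higher and 3 lower without library 3 (7.69% and 5.52% of all genes), and the medians were 0.06 and 0.47. Summed, the list held 3404, 2490 and 896 CPM in maintenance and 2647, 2252 and 2115 CPM in control16, with library 3 the lowest. Cd68, a lysosomal membrane protein of macrophages, was at 184, 139 and 29.5 CPM against 63.4, 61.0 and 85.8 CPM, with 0.75 ± 0.46 (adjusted p = 0.368), and 1.25 ± 0.37 without library 3 (adjusted p = 0.265). Lyz1, a lysozyme gene that shares reads with its near copy Lyz2 and is uncertain for that reason, was at 23.7, 46.9 and 13.8 CPM against 153, 125 and 58.5 CPM, and its level was below control16 in every maintenance library (-1.99 ± 0.52, adjusted p = 0.0604), as it was without library 3 (-1.63 ± 0.56, adjusted p = 0.301). Tyrobp, the signalling partner of Trem2, was at 147, 94.8 and 27.6 CPM against 52.8, 48.4 and 58.1 CPM, and again library 3 was under control16.

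Whether the effect at 8 weeks differed from that at 4 weeks was tested as the difference of the 2 effects, maintenance minus control16 less loss minus control12, over 12 libraries that no 2 groups share. A negative value means a smaller or more negative effect at 8 weeks. edgeR called 1599 genes (8.97%), 590 positive (3.31%) and 1009 negative (5.66%), and without maintenance library 3 it called 1621 (8.83%), 597 positive (3.25%) and 1024 negative (5.58%). Of these, 1095 were called in both. The calls rest on a spread estimated from all libraries of the series. Fitting only the 4 groups gave 1 call, and 0 without maintenance library 3, with 3851 at an unadjusted p under 0.05. Loss library 1 had the most macrophage transcripts: the list summed to 15991, 5803 and 5831 CPM in loss and to 1921, 1525 and 1955 CPM in control12. Leaving out loss library 1 gave 489 calls, and, without library 3, leaving out maintenance library 1, which leaves a single maintenance library, gave 0, with 3506 at an unadjusted p under 0.05.

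Of the genes called negative with the smallest p, Dok2, an adaptor of immune cell signalling, was at 17.6, 19.6 and 10.6 CPM in maintenance. It was at 18.7, 19.6 and 22.6 CPM in control16, at 120, 51.9 and 56.1 CPM in loss and at 15.2, 11.3 and 14.5 CPM in control12. Its difference of effects was -2.83 ± 0.35 (adjusted p = 0.00106), and -2.58 ± 0.34 without maintenance library 3 (adjusted p = 0.00401). Loss libraries were above all others, while maintenance and control16 overlapped. Daglb, a lipase that makes an endocannabinoid, was at 45.9, 44.5 and 28.6 CPM in maintenance, 37.1, 36.8 and 36.7 CPM in control16, 184, 114 and 122.5 CPM in loss and 38.2, 28.9 and 33.0 CPM in control12. It gave -1.96 ± 0.27 and the potassium channel gene Kcnk13 -3.75 ± 0.53 (adjusted p = 0.00169 each). The fit without maintenance library 3 also named Il27ra and Sh2d1b1, and they gave -2.26 ± 0.34 and -3.08 ± 0.69 with all libraries.

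The lipid-associated macrophage list had 9 negative and 0 positive calls of 22 (5.66% and 3.31% of all genes), with a median of -2.55 against 0.06 over all genes. Without library 3 there were 10 and 0 (5.58% and 3.25% of all genes), with a median of -2.20. Without loss library 1 there were 6 negative calls and a median of -1.02, while negative calls over all genes fell from 1009 to 394. Lipa, the lysosomal acid lipase, was at 173, 169 and 114 CPM in maintenance, 157, 148 and 126 CPM in control16, 2041, 519 and 782 CPM in loss and 124, 143 and 147 CPM in control12, giving -2.93 ± 0.50 (adjusted p = 0.00323). Ctsk, a protease of lysosomes, gave -3.05 ± 0.58 (adjusted p = 0.00483) and Cd9, a tetraspanin, -2.58 ± 0.52 (adjusted p = 0.00586). Gpnmb gave -3.81 ± 1.02 (adjusted p = 0.0233), at 7246, 1316 and 1953 CPM in loss. Mmp12, Lgals3, which encodes galectin-3, and Cd68 gave -4.94 ± 1.17, -2.86 ± 0.61 and -2.55 ± 0.65 (adjusted p = 0.0128, 0.00742 and 0.0187). The calls of Gpnmb, Mmp12 and Cd68 ended without loss library 1, and that of Gpnmb ended for 4 of 12 libraries left out in turn. Trem2 did not pass, at -2.53 ± 0.91 (adjusted p = 0.0827), with 492, 251 and 219 CPM in loss.

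Of 22 macrophage genes 15 were called negative and 0 positive (5.66% and 3.31% of all genes), with a median of -2.46. Without library 3 there were 14 negative calls (5.58% of all genes), with a median of -2.03. Without loss library 1 there were 8, and 394 over all genes. Cybb, the oxidase subunit, gave -2.87 ± 0.51 (adjusted p = 0.00376), Itgam, the integrin CD11b, -3.47 ± 0.65 (adjusted p = 0.00455) and Ccr2 -2.15 ± 0.39 (adjusted p = 0.00425). Ccr2 was at 60.2, 51.4 and 35.5 CPM in loss and at 37.2, 26.3 and 35.6 CPM in control12, and these libraries overlapped. Chemokines were called too, with Ccl2, which draws monocytes, at -4.34 ± 0.71 and Ccl7 at -3.91 ± 0.74, and with the growth factor Csf1 at -1.06 ± 0.21 (adjusted p = 0.00274, 0.00455 and 0.00586). The cytokine list had 9 negative calls and 1 positive call of 27 (5.66% and 3.31% of all genes), and 3 and 0 without loss library 1.

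Cell cycle genes had 26 negative and 0 positive calls of 30 (5.66% and 3.31% of all genes), with a median of -2.03. Without library 3 there were 23 negative calls (5.58% of all genes), with a median of -1.87. Without loss library 1 there were 12, with a median of -1.76, and 394 over all genes. Cenpe, a kinetochore motor, was at 1.36, 1.51 and 1.46 CPM in maintenance, at 3.30, 3.04 and 3.11 CPM in control16, at 9.78, 5.14 and 8.73 CPM in loss and at 2.79, 2.63 and 2.99 CPM in control12, giving -2.61 ± 0.51 (adjusted p = 0.00515). Top2a, a DNA topoisomerase, gave -2.72 ± 0.54 and Tpx2, a spindle gene, -2.82 ± 0.58 (adjusted p = 0.00536 and 0.00653). Lysosome genes had 13 negative calls of 27 (5.66% of all genes), with Gusb at -2.06 ± 0.34, Gla at -2.27 ± 0.44 and Psap at -2.00 ± 0.42 (adjusted p = 0.00274, 0.00506 and 0.00672). There were 11 without library 3 (5.58% of all genes) and 4 without loss library 1. Of the immediate early genes, Egr2 gave -4.19 ± 0.60, Junb -2.20 ± 0.42 and Atf3 -3.34 ± 0.68 (adjusted p = 0.00169, 0.00484 and 0.00629), with 6 negative calls of 20 (5.66% of all genes).

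In the other direction, adipocyte identity genes had 4 positive calls of 21, and branched-chain amino acid breakdown 8 of 20 (3.31% of all genes). These counts were also 4 and 8 without maintenance library 3, and 0 and 0 without loss library 1, with 19 of 21 and 20 of 20 still above 0. Positive calls over all genes fell from 590 to 95 without loss library 1. Markers of other tissues lay on the same side. Red cell genes had 3 positive calls of 8, and stood as mean log2 CPM at 6.49, 4.97 and 5.42 in maintenance, 4.94, 5.73 and 5.204 in control16, 2.44, 3.54 and 3.51 in loss and 5.03, 5.71 and 4.66 in control12, so the loss libraries were the lowest. Mesothelium genes had 0 calls of 13, and 2 with an unadjusted p under 0.05, which 25.9% of all genes had in either direction. All 13 lay above 0, with loss at -1.03, 2.73 and 1.75 and control12 at 3.54, 1.003 and 4.25. Epididymis genes had 2 positive calls of 7, and testis and sperm genes 1 of 10, with all tested members above 0. Testis and sperm genes stood at -1.97, -2.38 and -2.36 in loss and at -1.12, -2.25 and 3.14 in control12, where library 3 was the highest. Without maintenance library 3 the red cell, epididymis and testis counts were 3, 2 and 0, and without loss library 1 they were 1, 0 and 0. The part of these tissues in the adipocyte and amino acid values was not tested. Cfd gave 3.595 ± 0.93 (adjusted p = 0.0199), at 234, 1240 and 1126 CPM in loss and 4900.1, 4421 and 6291 CPM in control12, and its maintenance values were given above. The transcription factor gene Cebpa gave 1.23 ± 0.31 (adjusted p = 0.0164) and the receptor gene Acvr1c 1.63 ± 0.44 (adjusted p = 0.0238). Of the amino acid genes, Mccc1, Pccb and Mccc2, subunits of mitochondrial carboxylases, gave 1.501 ± 0.38, 1.34 ± 0.34 and 1.37 ± 0.37 (adjusted p = 0.0166, 0.0191 and 0.0241). Calls of these 6 genes ended without loss library 1. Other single libraries ended some of them too. Acvr1c and Mccc2 lost their call for 5 of 12 libraries left out in turn, Cfd for 3, Cebpa and Pccb for 2 and Mccc1 for 1. Slc20a2, a phosphate transporter, was at 43.1, 40.5 and 49.95 CPM in maintenance, 47.5, 44.6 and 42.3 CPM in control16, 29.03, 33.998 and 31.95 CPM in loss and 56.1, 59.1 and 56.4 CPM in control12, giving 0.84 ± 0.14 (adjusted p = 0.00332). The other genes named on the positive side, Cyp2f2, Tst, Drd1a and Gsta4, gave 7.49 ± 1.24, 3.96 ± 0.66, 3.25 ± 0.59 and 3.81 ± 0.70 (adjusted p = 0.00274, 0.00289, 0.00392 and 0.00428). The fit without maintenance library 3 also named Zbtb5, Eif4ebp3, 2010016I18Rik and Rassf6. With all libraries they gave 1.48 ± 0.38, 3.67 ± 1.12, 3.10 ± 0.84 and 5.61 ± 1.05 (adjusted p = 0.0199, 0.0432, 0.0257 and 0.00452). With 12 libraries left out in turn, the call of Zbtb5 ended for 3, that of Eif4ebp3 for 10, that of 2010016I18Rik for 5 and that of Rassf6 for 0.

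**Figure D3:**
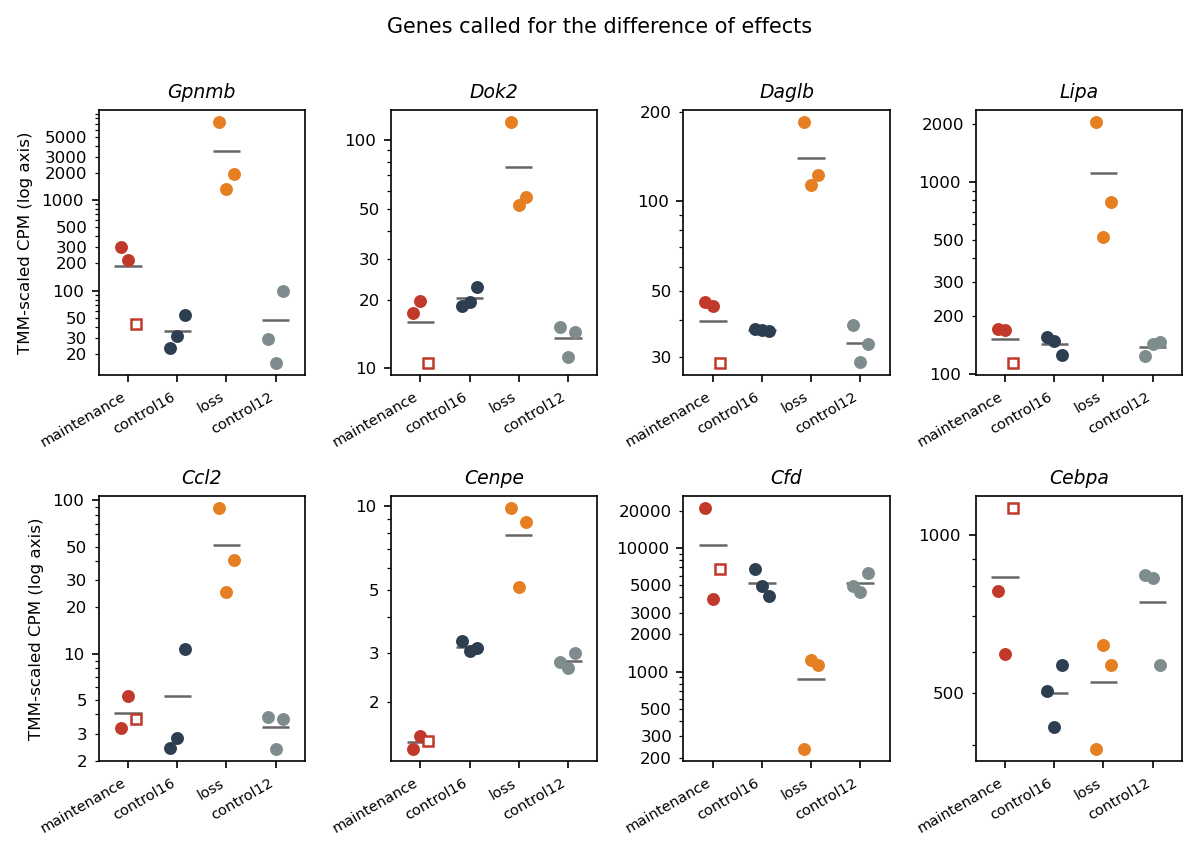
Levels per library (TMM-scaled CPM, log axis) of 8 genes called for the difference of effects, in maintenance, control16, loss and control12; points are libraries, the open square is maintenance library 3 and the line is the group mean. For Gpnmb, Dok2, Daglb, Lipa, Ccl2 and Cenpe the loss libraries lie above control12 and above maintenance. Cenpe lies below control16 in all 3 maintenance libraries, and Gpnmb lies above it in libraries 1 and 2.

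Matrix genes are described as lists. Of 20 elastic fibre and crosslinking genes 12 were lower and 0 higher at an unadjusted p under 0.05 with all libraries (6.87% and 13.5% of all genes), with a median of -0.78, and 5 and 0 without library 3 (5.52% and 7.69% of all genes), with a median of -0.55. These shares of all genes also stand beside the next 2 lists. Eln, the elastin gene, was at 55.6, 84.2 and 57.2 CPM in maintenance and at 199, 256 and 166 CPM in control16 (-1.66 ± 0.44, adjusted p = 0.066), and -1.53 ± 0.51 without library 3 (adjusted p = 0.297). Loxl2, an enzyme that crosslinks collagen and elastin, was at 36.1, 27.9 and 26.7 CPM against 75.6, 57.2 and 47.1 CPM. For both genes all maintenance libraries lay below all control16 libraries. Of 17 collagens 7 were lower and 0 higher, with a median of -0.62, and 4 without library 3, with a median of -0.67. Col4a1, a basement membrane collagen, was at 554, 1348 and 896 CPM against 2600.5, 1862 and 1973 CPM, and its partner Col4a2 at 301, 878 and 688 CPM against 1388, 1051 and 1477 CPM. Neither overlapped between groups. Of 20 matrix glycoproteins and proteoglycans 10 were lower and 1 higher, with a median of -0.74, and 6 and 1 without library 3, with a median of -0.49. Bgn, the biglycan gene, was at 186, 301 and 213 CPM against 498, 678 and 488 CPM, and its difference of effects was -1.91 ± 0.48 (adjusted p = 0.0169), a call that ended without loss library 1. Fn1, fibronectin, was at 337, 358 and 223 CPM against 1119, 822 and 532 CPM. Sparc, a matrix protein that binds collagen, was at 1303, 4193 and 1930 CPM against 4669, 3890 and 8284 CPM, and maintenance library 2 overlapped control16.

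None of 20 endothelial genes passed, and their level varied with Lars2. Their sum was 1255, 2365 and 2785 CPM in maintenance and 5197, 5157 and 2365 CPM in control16, in which the library low in Lars2 had the low value. The 20 genes had medians of -0.97 with all libraries and -1.28 without library 3, and of -0.57 within the low and -0.72 within the high Lars2 set. Pecam1, a junction protein of endothelium, was at 95.0, 161 and 232 CPM against 474, 534 and 194 CPM, and the control16 library low in Lars2 lay among the maintenance libraries. Vwf, the von Willebrand factor gene, was at 23.5, 36.1 and 94.0 CPM against 98.3, 203 and 41.2 CPM, and Angpt2, a ligand that loosens vessels, at 3.66, 5.08 and 15.4 CPM against 16.4, 22.8 and 9.60 CPM. In both, maintenance library 3 was above control16 library 3. Cldn5, a tight junction gene, was at 86.6, 153 and 61.6 CPM against 332, 270 and 185 CPM, with no overlap.

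None of 30 ribosomal protein genes passed. All 30 lay above 0 with and without library 3. Of them 30 and 29 had an unadjusted p under 0.05 (13.5% and 7.69% of all genes higher). The medians were 0.70 and 0.91 against 0.02 and 0.04 over all genes. Rps19 was at 623, 335 and 453 CPM in maintenance and at 230, 213 and 228 CPM in control16, with 1.07 ± 0.28 (adjusted p = 0.0604) and 1.14 ± 0.32 without library 3 (adjusted p = 0.265). Rpl32 was at 678, 392.2 and 443 CPM against 299, 261 and 275 CPM. The maintenance libraries were above control16 for both genes, with library 1 the highest. Within the low and high Lars2 sets the list medians were 0.85 and 0.36. None was called for the difference of effects. Ribosomal protein genes have processed pseudogenes that can take part of their reads.

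Oxidative phosphorylation genes encoded in the nucleus did not pass either, but all 44 lay above 0, 42 of them with an unadjusted p under 0.05 (13.5% of all genes higher). The median was 0.79. Without library 3 there were 17 (7.69% of all genes) and the median was 0.43. Cox7b, a subunit of cytochrome oxidase, was at 133, 81.6 and 223 CPM against 74.1, 58.6 and 77.5 CPM, and maintenance library 3 was the highest. Atp5o, an ATP synthase subunit, was at 234.8, 165 and 403 CPM against 129, 109 and 154 CPM, with the same order of libraries. All 20 genes that break down branched-chain amino acids lay above 0, with 7 at an unadjusted p under 0.05 (13.5% of all genes), and 18 and 3 without library 3 (7.69% of all genes). Bcat2, which starts this breakdown, was at 234, 106 and 288 CPM against 90.7, 82.7 and 96.2 CPM, with 1.22 ± 0.32 (adjusted p = 0.0606), and 0.97 ± 0.34 without library 3 (adjusted p = 0.306). Acad8, a dehydrogenase of valine breakdown, was at 54.8, 42.2 and 64.9 CPM against 39.4, 37.7 and 40.7 CPM, and Dld, a subunit of several dehydrogenase complexes, at 170, 130 and 449 CPM against 132, 111 and 153 CPM. Maintenance library 2 was the lowest of its group in all of these.

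Lipogenesis and cholesterol synthesis values rested on library 3. Of 19 lipogenic genes 15 were higher at an unadjusted p under 0.05 (13.5% of all genes) with a median of 2.28, and 1 higher and 1 lower without library 3 (7.69% and 5.52% of all genes), with a median of -0.22. Of 23 cholesterol synthesis genes 18 were higher, with a median of 1.68, and 0 higher and 1 lower without library 3, with a median of -0.01. Thrsp, a lipogenic nuclear protein gene, was at 377, 211 and 6055 CPM in maintenance and at 134, 120 and 160 CPM in control16, with 4.00 ± 0.85 (adjusted p = 0.0508) and 1.14 ± 0.47 without library 3 (adjusted p = 0.348). Acss2, which makes acetyl-CoA from acetate, was at 38.4, 45.6 and 2161 CPM against 55.2, 50.4 and 50.2 CPM. Fdps, a cholesterol synthesis gene, was at 14.4, 16.3 and 315 CPM against 14.8, 12.6 and 17.5 CPM. Libraries 1 and 2 lay below control16 for Acss2 and inside its range for Fdps, while for Thrsp every maintenance library was above it. Dgat1, which makes triglyceride, was above control16 in maintenance libraries 1 and 3, at 448, 158 and 460 CPM against 122.6, 104 and 170 CPM.

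**Figure D4:**
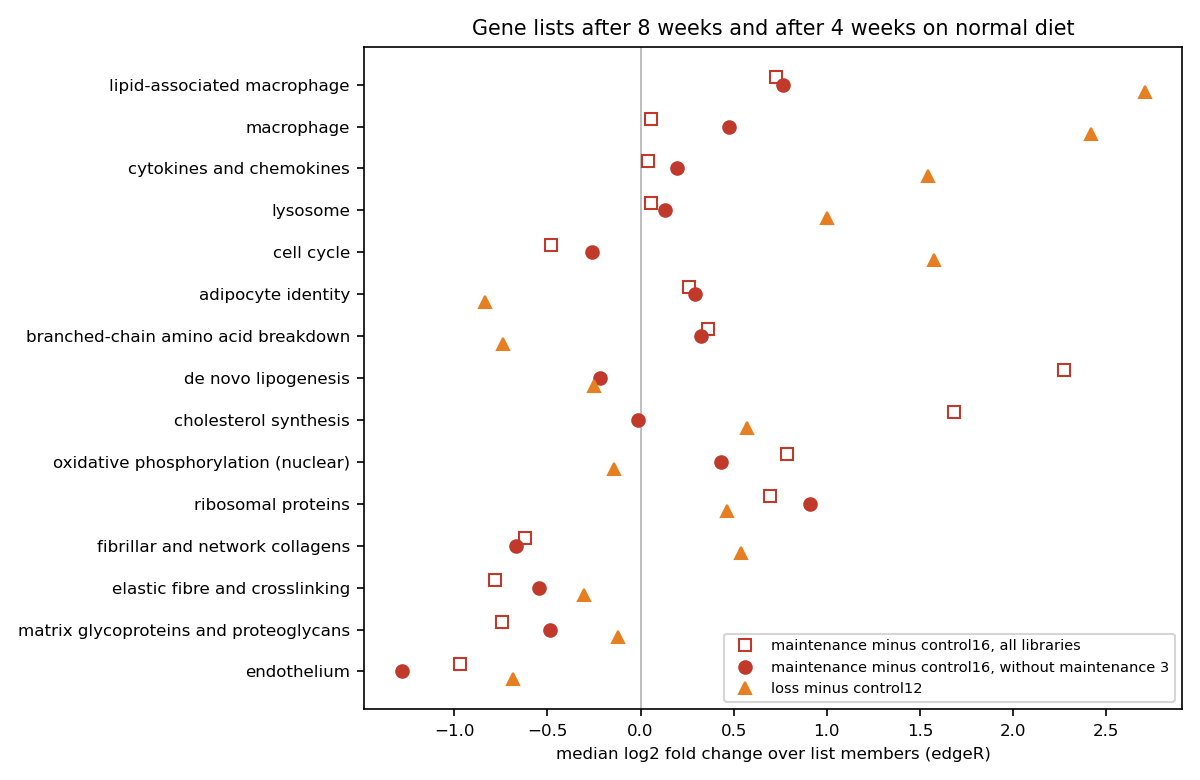
Median log2 fold change over the members of 15 gene lists, for maintenance minus control16 with all libraries (open squares), without maintenance library 3 (circles) and for loss minus control12 (triangles). Lipogenesis lies at 2.28 with all libraries and -0.22 without library 3, while lipid-associated macrophage genes lie at 0.72, 0.77 and, in loss, 2.71.

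Genes chosen at earlier times were read in maintenance. The comparison of gain8 with control8 called 3833 genes (21.5%). The 1231 that were at least 2-fold higher had a median of 0.02 in maintenance with all libraries and 0.12 without library 3, against medians of 0.02 and 0.04 over all genes, and of 1.72 in gain8 where they were chosen. Loss against control12 called 3564 genes (20%), and its 1212 genes at least 2-fold higher had medians of 0.06 and 0.16. Of them 53.5% lay above 0, and 62.7% without library 3, against 51.5% and 53.5% of all genes. Library 3 was kept in every fit here that left out library 1 or 2. Without maintenance library 1 the share above 0 was 43.1%, with a median of -0.086, against 47.3% of all genes. Without library 2 it was 49.7%, with a median of -0.0090, against 50.9%. The direction thus turned with 1 library. For the gain8 genes the median was -0.078 without maintenance library 1 and -0.081 without library 2. Gain8 called 12% of genes higher and 9.52% lower, and loss 11.8% higher and 8.24% lower. The genes at least 2-fold lower in gain8 (1040) and in loss (1045) had medians of 0.04 and -0.06, and of 0.20 and 0.11 without library 3, and -0.15 and -0.22 without library 1. Maintenance and control16 share no library with the groups that chose these genes.

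**Figure D5:**
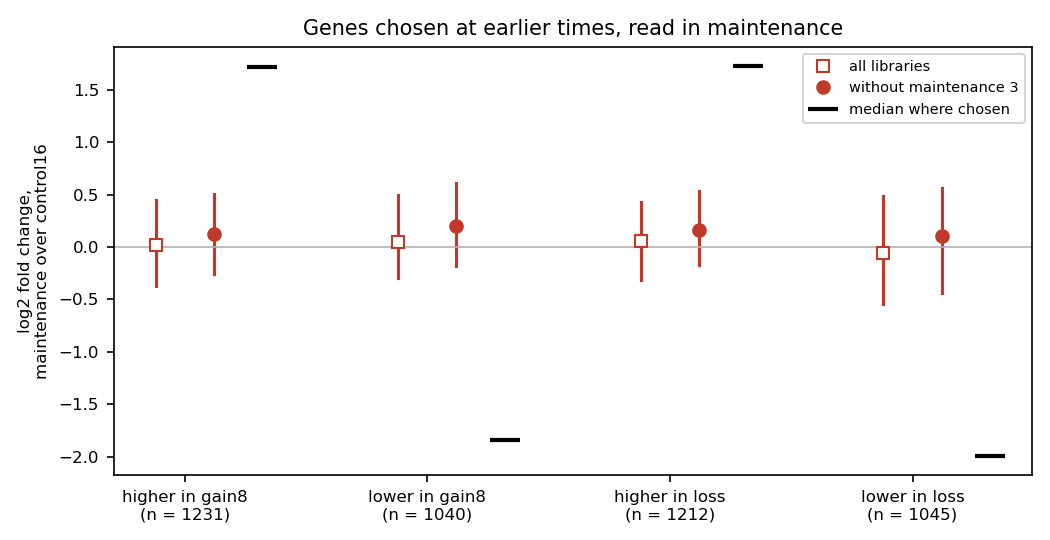
Log2 fold change of maintenance over control16 for genes called at least 2-fold higher or lower in gain8 or in loss; markers are medians with all libraries (open squares) and without maintenance library 3 (circles), lines run from the lower to the upper quartile and black bars show the median where the genes were chosen. Medians in maintenance lie between -0.06 and 0.20.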

How the data were processed

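Epididymal fat RNA was sequenced from TruSeq RNA libraries, as the labels' protocols state. The submitters' processing notes name Trimmomatic 0.33, TopHat2 2.0.13 and HTSeq 0.6.0, and the build mm10 (GRCm38). The authors deposited raw counts per gene and FPKM. The strand setting and counting annotation are not given in the sources used here. Of 43616 count rows, 156 repeat a name with identical values and were used once. Gene positions were joined by gene ID from GENCODE for GRCm38.

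In R 4.3.3, edgeR 4.0.16 (TMM, filterByExpr with minimum count 10 and total 15) fitted a mean per group over all 27 libraries. Other settings tried were scaling by RLE, testing every gene, DESeq2 1.42.0, the compared groups only, the Lars2 set (divided at 1000 CPM) as a term, a replicate block, left-out libraries, and limma 3.58.1 on log2(FPKM + 1) and log2(FPKM + 0.1). List levels are log2 CPM with a prior count of 2. Code was tested on simulated data. The members, lists and rules were chosen with earlier results of these data known. Named genes are up to 12 per direction with the smallest p among those with groups that do not overlap and at least 5 CPM, the 3 members of smallest p in each described list, and 5 per direction for the difference of effects. One gene that this rule names is not reported here. Others, and the motifs, were chosen after values were seen.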

Additional observations from a re-analysis of the deposited data

Results flagged for a closer look

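The effects at 8 weeks (maintenance less control16) and at 4 weeks (loss less control12) differed when the difference itself was tested (edgeR, quasi-likelihood, Benjamini-Hochberg adjusted p under 0.05) for 1599 genes, and for 1621 without maintenance library 3. Values below are log2 differences of effects with all libraries, and all of these genes were called. Of 43 such calls in the fit of all libraries 30 held with each of the 12 libraries left out in turn, 13 ended without loss library 1, and all 43 ended when only the 4 groups were fitted. The fit without maintenance library 3 also called these 43. There 10 ended without loss library 1, 7 without control12 library 1, 6 without control16 library 2, and all 43 with only the 4 groups. Leaving out a further maintenance library leaves 1 in that group, so the 30 were not shown to hold in that fit.

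Macrophage and lipid-handling genes gave -2.15 (Ccr2), -3.81 (Gpnmb), -4.94 (Mmp12), -2.86 (Lgals3), -2.55 (Cd68), -2.93 (Lipa), -3.05 (Ctsk), -2.58 (Cd9), -2.87 (Cybb) and -3.47 (Itgam). Genes named for their small p gave -2.83 (Dok2), -1.96 (Daglb), -3.75 (Kcnk13), -4.19 (Egr2), -2.26 (Il27ra) and -3.08 (Sh2d1b1). Positive ones were 7.49 (Cyp2f2), 3.96 (Tst), 0.84 (Slc20a2), 3.25 (Drd1a), 3.81 (Gsta4), 1.48 (Zbtb5), 3.67 (Eif4ebp3), 3.10 (2010016I18Rik) and 5.61 (Rassf6). Cell cycle genes gave -2.61 (Cenpe), -2.72 (Top2a) and -2.82 (Tpx2), and lysosome genes -2.06 (Gusb), -2.27 (Gla) and -2.00 (Psap). Secreted signals gave -4.34 (Ccl2), -3.91 (Ccl7) and -1.06 (Csf1), immediate early genes -2.20 (Junb) and -3.34 (Atf3), and the matrix gene Bgn -1.91. Adipocyte genes gave 1.23 (Cebpa), 3.595 (Cfd) and 1.63 (Acvr1c), and amino acid genes 1.501 (Mccc1), 1.34 (Pccb) and 1.37 (Mccc2).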

How the results depend on the processing

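For maintenance against control16 the count of called genes was 0, and 149 with RLE scaling, 217 with no filter, 830 with DESeq2, and 1 and 5 with limma on log2(FPKM + 1) and log2(FPKM + 0.1). It ran from 0 to 2299 with libraries left out in turn, and was 0 with the compared groups only and with the replicate block. Without maintenance library 3 it was 0, 73 with DESeq2, and 0 to 303 with a further library left out. For the difference of effects 1599 calls became 1 with the compared groups only, 1285 with the replicate block, and 489 to 2525 with libraries left out. Without maintenance library 3, 1621 calls became 2615 with DESeq2, 0 with the compared groups only, 1267 with the block, and 0 to 3330 with libraries left out. On log2(FPKM + 1) the share of positive calls was 12% of 1390, against 36.9% of 1599 on counts. Like-numbered replicates of maintenance and control16 correlated at 0.122, -0.127 and -0.104, as deviations from their group means. With 3 libraries a group, 1 of them with liver transcripts, these values cannot settle whether the numbers pair them. With libraries left out, changes ran from -0.25 to 2.33 for Fabp5, -0.25 to 5.18 for Acly, -0.27 to 4.42 for Acss2, -0.32 to 4.35 for Fasn and -0.34 to 7.18 for Alb, each lowest without maintenance library 3. In the fit without that library Fasn ran from -0.82 to 0.054, Dld from -0.0054 to 0.43 and Fdps from -0.051 to 0.22. The causes were not tested. A left-out library leaves 2 in its group, or 1, which is then assumed to vary like the others.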
